A study of Mus musculus with 14 samples.

Results

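The Hox clusters are 4 groups of homeobox genes, and 38 of their genes were followed here through 14 maps of accessible chromatin from mouse small cell lung cancer cells. The 38 genes, 10 in Hoxa, 10 in Hoxb, 9 in Hoxc and 9 in Hoxd, were taken by name out of 21887 protein-coding genes, and each was given its GRCm38 gene body plus 2 kb on either side. The peaks of all 14 libraries were merged wherever they overlapped by 1 bp, and 74 of the 177684 merged regions touched a Hox window. The members were chosen by name, not by their values. Because neighbouring windows overlap and Hoxa3, Hoxb3 and Hoxd3 are annotated across their neighbours, a region can belong to several members.

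ATAC-seq, in which a transposase cuts and tags open DNA, had been run on 7 lines grown in culture from mouse tumours, with 2 libraries per line. The 3 lines labelled RPR2, a name used in this field for loss of Rb1, Trp53 and Rbl2, were 1373M1, grown from a metastasis in the liver, and 12N1G and N2N1G, each grown from one in a lymph node. The 4 lines labelled RPR2;Nfibf/f, written Nfibf/f from here on, carry in addition a conditional allele of the transcription factor gene Nfib. Of these, the lung tumor lines were 1398P2 and 1399P1 and the liver metastasis lines 1398M1 and 1399M4. The labels do not give the animal behind a line, the age of the mice, the agent that switched the conditional alleles, or whether the 2 libraries of a line were separate cultures. The line, as the mean of its 2 libraries, was the replicate, and p-values measure the spread between these lines. Lymph node lines exist in RPR2 alone and lung tumor lines in Nfibf/f alone, so that for those tissues genotype and tissue cannot be told apart.

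Hox genes encode transcription factors that give cells of the embryo their position along the body, and their order on the chromosome follows the order in which they act from head to tail. Paralog groups near the head end are called anterior and those near the tail posterior. The clusters are classic targets of Polycomb repression, which keeps the unused genes closed, while Trithorax proteins and retinoic acid keep or turn them on. Adult lung retains expression of anterior and central Hoxa and Hoxb genes, and Hoxa5 is needed for the airway to form.

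The promoters below show the sequence at the members on which the results turn. Each is 300 bases long, from 250 before to 50 after the annotated start, from RefSeq (GRCm38.p6), and CG pairs are in capitals. Hoxd10, Hoxd9 and Hoxd8 are shown because their promoters lay under a peak in all 4 lymph node libraries and in the fewest of the others (those of Hoxd13, Hoxd11 and Hoxd1 also did so in all 4, and in 3, 5 and 3 of the other 10), Hoxb4 because its promoter did so in none of those 4, Hoxa5 because 1 line opened it, and Hoxb1 because no library did.
Hoxd10 (chr2:74691641-74691940, plus strand): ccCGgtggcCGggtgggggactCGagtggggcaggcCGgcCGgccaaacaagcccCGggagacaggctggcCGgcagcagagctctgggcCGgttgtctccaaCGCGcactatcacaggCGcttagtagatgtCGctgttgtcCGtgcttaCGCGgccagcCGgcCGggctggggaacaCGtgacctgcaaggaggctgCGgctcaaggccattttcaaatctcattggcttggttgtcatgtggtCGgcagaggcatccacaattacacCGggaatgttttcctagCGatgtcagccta
Hoxd9 (chr2:74697513-74697812, plus strand): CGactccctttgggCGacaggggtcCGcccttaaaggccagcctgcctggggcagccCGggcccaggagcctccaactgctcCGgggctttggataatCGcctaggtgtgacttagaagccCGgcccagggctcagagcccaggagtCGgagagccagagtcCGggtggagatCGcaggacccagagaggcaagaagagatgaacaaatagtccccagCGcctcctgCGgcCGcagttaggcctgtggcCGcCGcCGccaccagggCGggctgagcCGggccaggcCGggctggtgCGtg
Hoxd8 (chr2:74704365-74704664, plus strand): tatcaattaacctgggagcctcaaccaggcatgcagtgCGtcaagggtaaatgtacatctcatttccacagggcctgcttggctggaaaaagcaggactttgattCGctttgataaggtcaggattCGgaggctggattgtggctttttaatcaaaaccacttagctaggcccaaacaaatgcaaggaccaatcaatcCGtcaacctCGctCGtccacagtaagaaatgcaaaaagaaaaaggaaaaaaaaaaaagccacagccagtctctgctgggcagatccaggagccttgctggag
Hoxb4 (chr11:96318017-96318316, plus strand): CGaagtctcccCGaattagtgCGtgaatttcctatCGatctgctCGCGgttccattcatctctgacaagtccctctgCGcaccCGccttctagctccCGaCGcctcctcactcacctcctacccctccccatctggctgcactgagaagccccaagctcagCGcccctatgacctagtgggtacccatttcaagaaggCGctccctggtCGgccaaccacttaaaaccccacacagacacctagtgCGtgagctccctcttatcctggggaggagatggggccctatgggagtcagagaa
Hoxa5 (chr6:52204538-52204837, minus strand): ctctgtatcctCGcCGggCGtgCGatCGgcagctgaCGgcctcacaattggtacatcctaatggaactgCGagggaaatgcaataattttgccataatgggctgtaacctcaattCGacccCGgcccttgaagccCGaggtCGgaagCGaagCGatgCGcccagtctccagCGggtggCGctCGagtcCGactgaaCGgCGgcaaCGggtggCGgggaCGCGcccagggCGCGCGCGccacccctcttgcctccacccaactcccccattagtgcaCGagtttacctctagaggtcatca
Hoxb1 (chr11:96365508-96365807, plus strand): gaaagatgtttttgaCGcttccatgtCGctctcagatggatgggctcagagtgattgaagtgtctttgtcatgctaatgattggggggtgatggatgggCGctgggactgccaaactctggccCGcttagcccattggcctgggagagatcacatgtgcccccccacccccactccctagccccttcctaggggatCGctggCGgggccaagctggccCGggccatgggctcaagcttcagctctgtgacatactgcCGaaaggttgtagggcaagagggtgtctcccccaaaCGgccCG
The Hoxd10 promoter held 22 CG pairs and lay under a peak in 4 of 4 lymph node libraries and 2 of the 10 other libraries. For Hoxd9, with 20 CG pairs, the counts were 4 of 4 and 1 of 10, and for Hoxd8, with 6, they were 4 of 4 and 0 of 10. The Hoxb4 promoter, with 14 CG pairs, had the opposite distribution, 0 of 4 and 7 of 10. Hoxa5 had the most CG pairs of the 6, 29, and a peak in 2 libraries, both of 1373M1. The same 2 libraries were the only ones with a peak at the Hoxa13 promoter, which is not shown. Hoxb1, with 10 CG pairs, had no peak in any of the 14 libraries. These 6 were picked by their peaks, so whether the number of CG pairs goes with opening cannot be read from them.

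The RefSeq promoter table matched 22 of the 38 members, with 24 promoters. Of Hoxc it held only Hoxc4, and of Hoxb only Hoxb8, Hoxb4 and Hoxb1, so most of the 24 belong to Hoxa and Hoxd. The 24 held a median of 14.5 CG pairs, against 7 over all 32851 promoters of the table. None of the 24 was under a peak in all 14 libraries, whereas 33.1% of all promoters were. In no library under a peak were 12 of the 24, a share near the 45.7% of all promoters. TGATNNAT, a site for a Hox protein with its partner Pbx, was found on either strand in 4 of the 24, those of Hoxb8, Hoxb1, Hoxd11 and Hoxa2, or 16.7% against 8.85% of all promoters. The E-box CAGCTG, which neuroendocrine bHLH factors can bind, was found in 4 as well, those of Hoxa5, Hoxa6, Hoxa3 and Hoxa11, or 16.7% against 16.3%. Neither the full palindrome of the NFI factors nor the direct repeat of the retinoic acid receptor was found in the 24. Their shares over all promoters were 0.04% and 0.01%.

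The number of peaks per library ran from 65009 to 84220 in 13 libraries and was 33558 in replicate 2 of 1398P2. The read totals were not in the peak lists, and the depth was solved from them as the background floor, in fragments per bp. It was 0.507 in replicate 2 of 1398P2 and 0.632 to 1.134 in the other 13. The 4 lymph node libraries, with 70286 to 72440 peaks and floors of 0.632 to 0.803, lay inside the range of the others. The start of all 10 neuroendocrine marker genes carried a peak in 13 libraries, and 8 of the 10 did in replicate 2 of 1398P2. The starts of the 5 lymphocyte and myeloid markers carried a peak in 0 of 14 libraries, those of 5 hepatocyte markers in 0 to 2, of 8 fibroblast and endothelial markers in 2 to 6, and of 4 lung epithelial markers in 3 to 4. Nfib itself was open over 2.89 to 4.83% of its gene in the RPR2 lines and 1.41 to 3.76% in the Nfibf/f lines, and a peak list does not show whether the conditional allele was deleted.

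The largest contrast in the Hox clusters lay between the lymph node lines and the rest, and it ran in opposite directions in Hoxd and Hoxb. The open share, the percentage of a cluster under a peak, stood at 9.02 and 8.67% in the 2 libraries of 12N1G and at 8.14 and 10.3% in those of N2N1G for Hoxd. In the other 10 libraries it ran from 0 to 3.77%. No other library reached the lymph node libraries.

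**Figure D1:**
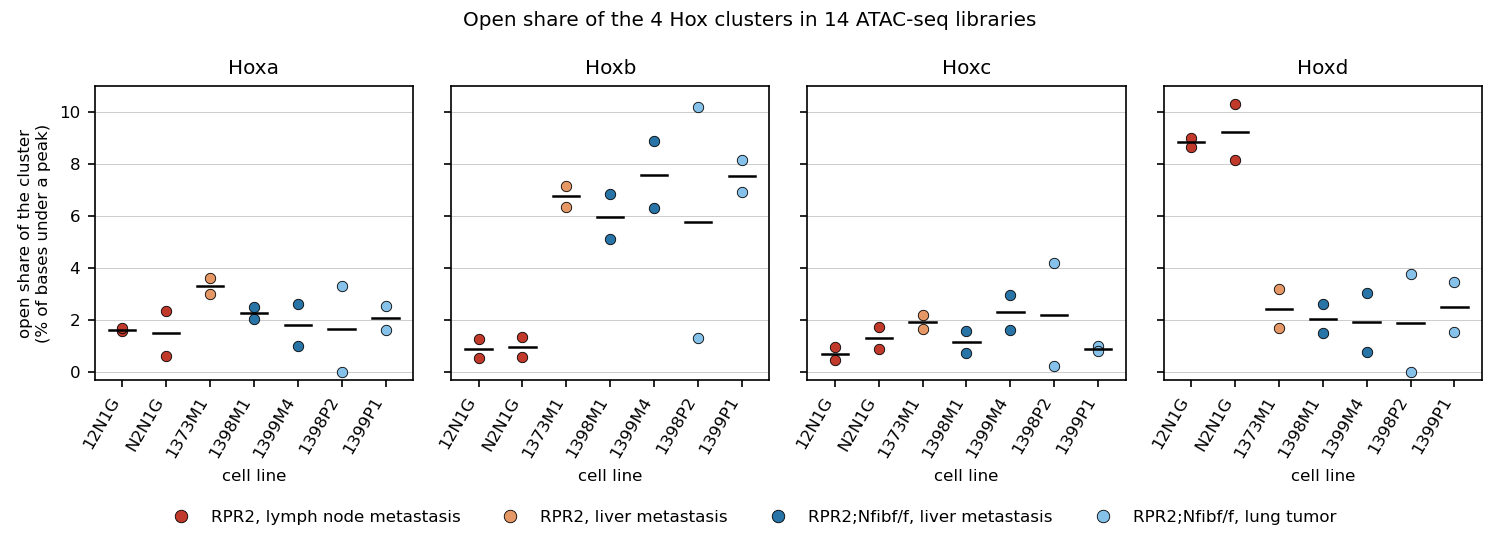
Open share of each Hox cluster, as the percentage of its bases under a peak, in the 2 libraries of each of 7 lines. Points are libraries, coloured by genotype and tissue, and bars are the mean of a line. The 4 lymph node points are highest in Hoxd, between 8.14 and 10.3%, and lie among the lowest in Hoxb, between 0.53 and 1.35%.

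For Hoxb the order was turned around. Open shares were 1.28 and 0.53% in 12N1G and 1.35 and 0.59% in N2N1G, against 5.12 to 10.2% in 9 of the other 10 libraries. Replicate 2 of 1398P2, the library with the fewest peaks, had 1.3%. Apart from that library the 2 groups did not overlap.

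Hoxa and Hoxc stayed low in every line. By line, Hoxa ran from 1.5% in N2N1G to 3.30% in 1373M1, and Hoxc from 0.70% in 12N1G to 2.30% in 1399M4. By genotype the lines overlapped in both clusters, and by tissue they did so in Hoxc. For Hoxa the lymph node lines, at 1.63 and 1.5%, lay just below the others, the nearest being 1398P2 at 1.67%. Single libraries of Hoxa overlapped. For comparison, the median protein-coding gene was open over 2.65 to 3.40% of its window in the 7 lines, and the median of the 38 members was 1.53 to 2.84%. Of the 38 members 9 to 15 had no open base in a line, or 23.7 to 39.5%, against 21.2 to 25.7% of all genes.

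By genotype, the open share of Hoxd was 6.84% ± 3.81 (SD, n = 3 lines) in RPR2 and 2.09% ± 0.285 (SD, n = 4 lines) in Nfibf/f. That difference of 4.75 percentage points gave p = 0.0571 in a two-sided exact permutation test over the 35 splits of 7 lines, and 0.229 after Benjamini-Hochberg adjustment over 4 clusters. Hoxb was 2.88% ± 3.36 in RPR2 and 6.72% ± 0.992 in Nfibf/f, a difference of -3.84 points (exact permutation p = 0.114, adjusted 0.229). Hoxa differed by 0.181 points (exact p = 0.886) and Hoxc by -0.327 points (exact p = 0.543). No cluster passed the threshold of 0.05, and the smallest p the design allows is 0.0286. The labels do not say whether 1398M1 and 1398P2, or 1399M4 and 1399P1, which share a number, came from 1 animal each. With each such pair averaged into 1 line, a choice made after the values were seen, the exact p was 0.2 for Hoxd and 0.3 for Hoxb, and the smallest p possible was 0.1. The wide spread within RPR2 came from 1373M1, the RPR2 line from a liver metastasis. It had 2.45% for Hoxd and 6.76% for Hoxb, values inside or next to the Nfibf/f ranges of 1.88 to 2.5% and 5.75 to 7.60%.

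The comparison of the 2 lymph node lines with the 5 other lines was made after these values had been seen, so its p-values describe it and are not independent support. Hoxd was 9.03% ± 0.268 (SD, n = 2) in the lymph node lines and 2.16% ± 0.294 (n = 5) in the others, 6.87 points apart. Hoxb was 0.938% ± 0.042 and 6.73% ± 0.859, a difference of -5.79 points. Both gave p = 0.0476 in the exact permutation test over 21 splits, the smallest p this design can give, and 0.0952 after adjustment over the 4 clusters. Hoxa differed by -0.665 points (exact p = 0.19) and Hoxc by -0.687 points (exact p = 0.286). With the 2 lymph node lines taken as 1 line, the differences of 6.87 and -5.79 points had an exact p of 0.167, the smallest possible for 1 line against 5. Whether the 2 lymph node lines came from 1 animal is not given, and they shared most of their open Hox regions. Of the 17 regions open in 12N1G and the 20 in N2N1G 16 were common, or 94.1% and 80.0%. Each shared at most 9 regions with any other line. Other pairs of lines also shared most of their open Hox regions, such as 1373M1 and 1399M4 with 23 in common, or 74.2% and 85.2%.

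Within the Nfibf/f genotype, lung tumor and liver metastasis lines differed by at most 0.207 points in any cluster, but single libraries moved these values and turned their sign. Lung tumor lines minus liver metastasis lines came to -0.185 points for Hoxa, -0.133 for Hoxb, -0.168 for Hoxc and 0.207 for Hoxd. With 2 lines against 2, the exact permutation test cannot go below p = 0.333, and all 4 values of p were at least 0.667. The sizes were smaller than the SD within each group for Hoxa, Hoxb and Hoxc. Without replicate 1 or 2 of 1398P2 the differences were -2.36 and 2.09 points for Hoxb and -0.736 and 1.15 for Hoxd.

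In a cell line, a region was called open where both libraries had a peak in it. Across the 4 clusters 51 of the 74 Hox regions were open in at least 1 line, 8 of 16 in Hoxa, 23 of 30 in Hoxb, 7 of 9 in Hoxc and 13 of 19 in Hoxd. None was open in all 7 lines and none had a peak in all 14 libraries. The median length of a Hox region was 525 bp, and 18 of the 74 lay over a gene start. All 13 open Hoxd regions were open in both lymph node lines, and the other 5 lines opened 0 to 4 of them. From the first to the last, the 13 spanned 95.4 kb. Such a span does not measure how much lies open, since the 4 of 1398M1 spanned 73.0 kb.

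**Figure D2:**
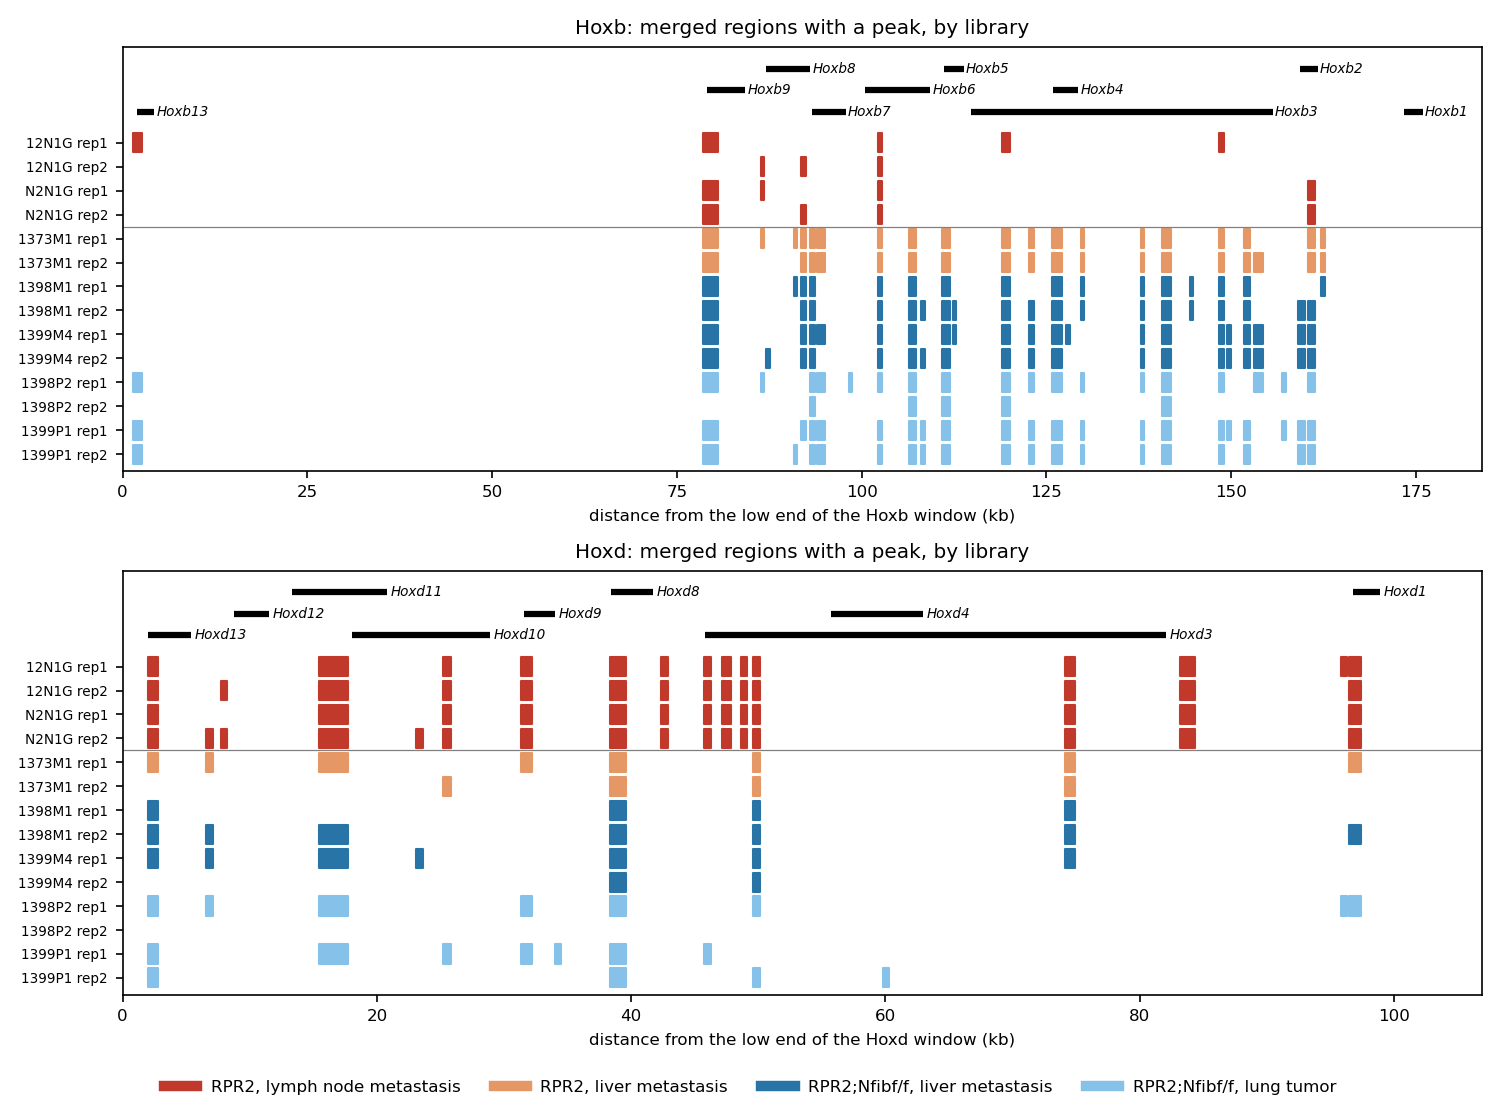
Merged regions with a peak in each library across Hoxb and Hoxd, by distance in kb from the low-coordinate end of the cluster window. Rows are libraries, coloured by genotype and tissue, and black bars above are the member genes. In the 4 lymph node libraries short regions are scattered from end to end of Hoxd, with gaps such as that around Hoxd4. In the other libraries Hoxb has scattered regions between Hoxb9 and Hoxb2, with replicate 2 of 1398P2 sparse in both clusters.

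Hoxb regions were open in 1 of 30 in 12N1G and 3 of 30 in N2N1G, against 14 in 1398M1, 17 each in 1373M1 and 1399M4, 18 in 1399P1 and 5 in 1398P2. The low count of 1398P2 followed from its replicate 2: 14 further regions had a peak in 1 of its 2 libraries. Regions in the gap between Hoxb13 and Hoxb9, more than 2 kb from any member, were not among the 30. The dense part of the map ran from Hoxb9 to Hoxb2.

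No Hox region was open in every line of 1 genotype and closed in every line of the other. Over all 119359 regions open in a line, 1446, or 1.21%, were specific to RPR2 in this sense and 763, or 0.639%, to Nfibf/f. Of the 51 open Hox regions 4 were open in both lymph node lines with no peak in the 10 other libraries, or 7.84%, where the share over all open regions was 3%. All 4 lay in Hoxd. They were at chr2:74708607-74709044, between Hoxd8 and Hoxd3, at chr2:74713384-74714095 and chr2:74714862-74715287, just past the start of Hoxd3, and at chr2:74749366-74750574, beyond the end of Hoxd3. None of the 4 lay over a gene start.

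The reverse set, with a peak in all 10 other libraries and in none of the 4 lymph node libraries, also held 4 Hox regions, or 7.84% against 0.542% of all open regions. All 4 lay in Hoxb. The first, chr11:96285298-96285960, covered the start of Hoxb7, and another, chr11:96303173-96304219, covered that of Hoxb5. The other two, chr11:96298748-96299624 in Hoxb6 and chr11:96332912-96334122 in Hoxb3, lay inside genes. These 4 had a peak in the sparse replicate 2 of 1398P2 as well. Only 1 Hoxb region, chr11:96294490-96295062 in Hoxb6, had a peak in all 4 lymph node libraries, and 9 of the other 10 had it too.

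Single lines also had regions of their own. Of the 12 regions open in exactly 1 line, 1373M1 had 5, 1399M4 had 3, 1399P1 had 2, and 1398M1 and N2N1G had 1 each. Those of 1373M1 included 2 at Hoxa5, chr6:52203782-52204264 and chr6:52204452-52204777, the second over the start of the gene. Hoxa5 was open over 10.1% of its window in 1373M1, 2.00% in 1398P2 and 0% in the other 5 lines. The open length at Hoxa5 was 705 and 669 bp in the 2 libraries of 1373M1 and 274 bp in replicate 1 of 1398P2. The remaining 11 libraries had none.

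**Figure D3:**
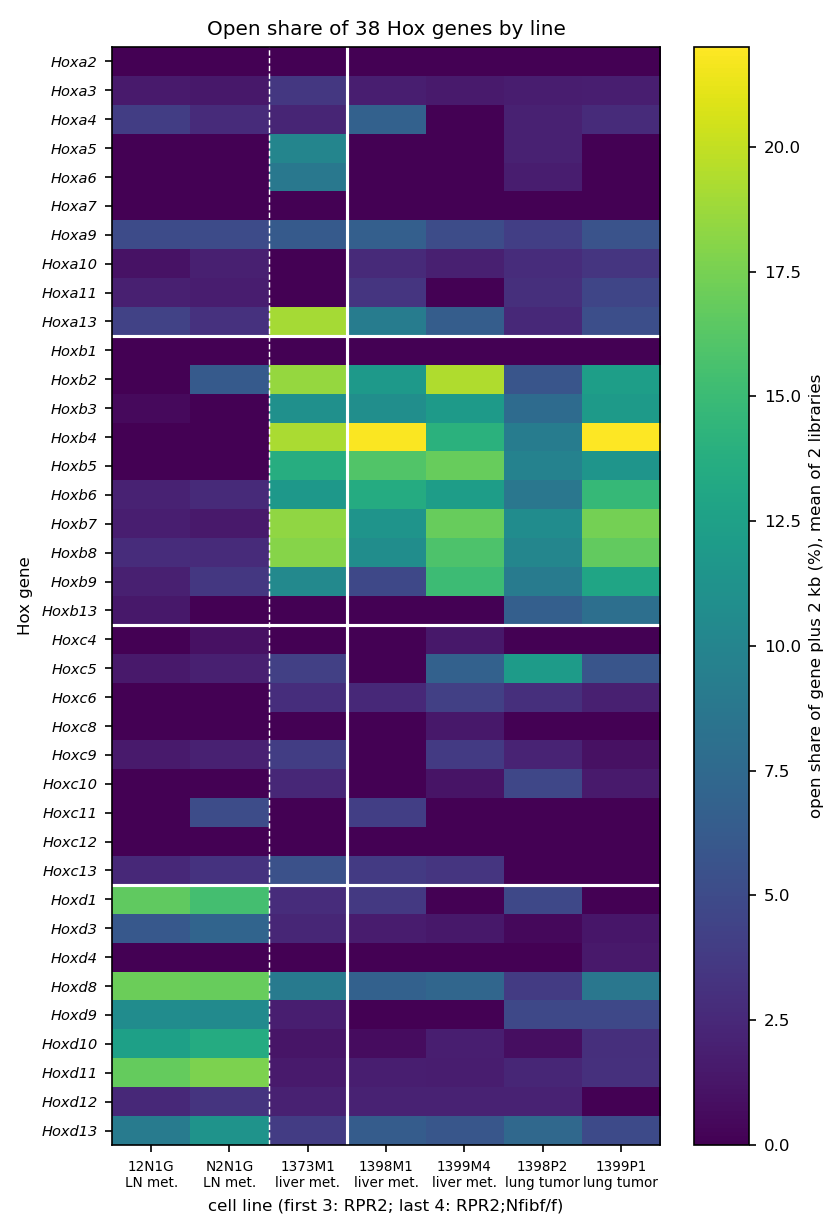
Open share of each of the 38 Hox genes with 2 kb on either side, in percent, as the mean of the 2 libraries of each line. Rows run from anterior to posterior within each cluster, and the first 3 columns are RPR2. Central Hoxb genes are bright in the 5 lines on the right and dark in the 2 lymph node lines, and most Hoxd genes show the reverse.

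Across members, 8 of the 9 Hoxd genes had an open share above the range of the other lines in both lymph node lines, where 8.13% of all genes did. In Hoxb 7 of 10 genes lay below it, and 8.79% of all genes did. In Hoxa and Hoxc 1 gene each, Hoxa3 and Hoxc6, lay below and none above. The exceptions in Hoxd and Hoxb were Hoxd4, Hoxb1, Hoxb2 and Hoxb13. These orders are by the mean of a line, and single libraries overlapped for some genes, Hoxd12 and Hoxd13 among them. When the lines were ordered by genotype, only Hoxd3 and Hoxd8 were above, 3.75% of all genes being so, and only Hoxa10 was below, with 10.4% of all genes.

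Posterior Hoxd genes pattern limbs, digits, kidney and the genital tract. Hoxd10, which acts in hindlimb and spinal motor neurons, was open over 1849 and 1856 bp in 12N1G and 1746 and 2271 bp in N2N1G. In the other 10 libraries its open length ran from 0 to 886 bp, with 4 libraries at 0. The 2 groups of libraries did not overlap. Hoxd11, which shares its largest region, chr2:74681635-74683926, with Hoxd10, had 1898 and 1960 bp in 12N1G, 1908 and 2148 bp in N2N1G, and 0 to 696 bp in the others. Hoxd9 stood at 621 to 754 bp in the lymph node libraries and at 0 to 617 bp in the others, with 7 of the 10 at 0. For each of the 3 genes, all 4 lymph node libraries lay above all 10 others, while the order of libraries within the 2 groups differed between genes.

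At the tail end of the cluster, Hoxd13, which shapes the digits, was open over 9.14 and 11.3% of its window in the lymph node lines and 3.92 to 7.43% elsewhere. Its single libraries overlapped, with 8.36 to 13.1% in the lymph node libraries and 0 to 14.9% in the others. By line, Hoxd12 was at 2.56 and 3.27% against 0 to 2.14%, and each line with a value above 0 had a peak in 1 of its 2 libraries. Hoxd8, a central gene, had the highest mean open share of the cluster, with 17.1% in 12N1G, 16.9% in N2N1G, 9.03% in 1373M1 and 3.81 to 8.70% in the Nfibf/f lines. A peak lay within 1 kb of its start in 13 of 14 libraries, all but replicate 2 of 1398P2. This was the most widely open start of the 38. Under the narrower promoter window printed above, only the lymph node libraries had one, so that the peak reached farther upstream there.

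Hoxd3, an anterior gene that patterns the upper neck vertebrae, had open lengths of 2379 and 2528 bp in 12N1G and 2463 and 3272 bp in N2N1G. The 2 libraries of 1373M1 had 1055 and 828 bp and the Nfibf/f libraries 0 to 936 bp. The 3 RPR2 lines were above the 4 Nfibf/f lines, and 1373M1 was nearer to the latter. Hoxd1, which marks pain-sensing neurons in mouse, was open over 16.7 and 15.4% in the lymph node lines and 0 to 4.77% in the others. Hoxd4, within the annotated span of Hoxd3, was at 0% in 6 lines and 1.51% in 1399P1, so that the opening of the cluster was not even.

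Central Hoxb genes had the mirror pattern. Hoxb4, known for expanding blood stem cells, had the highest mean open share of Hoxb. It was 0 bp in the 4 lymph node libraries, 1407 and 1427 bp in 1373M1 and 717 to 1731 bp in 7 of the 8 Nfibf/f libraries, with 0 bp in replicate 2 of 1398P2. Hoxb5, which takes part in lung branching, had 0 bp in the 4 lymph node libraries and 385 to 1303 bp in the 10 others. Hoxb6 was never fully closed, with 207 to 414 bp in the lymph node libraries and 705 to 2040 bp in the others. For both Hoxb5 and Hoxb6 the groups of libraries did not overlap.

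Hoxb3, an anterior gene with a long annotation that spans Hoxb4, was open over 483 bp in replicate 1 of 12N1G and 0 bp in the other 3 lymph node libraries. It had 653 bp in replicate 2 of 1398P2 and 3914 to 6314 bp in the other 9. Hoxb7 and Hoxb8, whose windows share 3 regions, were open over 1.48 to 2.80% in the lymph node lines and 10.1 to 18.3% in the others. Hoxb9 stood at 1.92 and 3.57% against 4.79 to 15.1%.

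At the 2 ends of Hoxb the pattern was lost. Hoxb2, a hindbrain gene, was at 0% in 12N1G but 6.25% in N2N1G, and that value exceeded the 5.76% of 1398P2. The other 4 lines had 11.9 to 19.4%. Hoxb13, which acts in the prostate and lies apart from its cluster, was at 8.05% in 1399P1, 6.70% in 1398P2, 1.46% in 12N1G and 0% in the other 4 lines. In 1398P2 and 12N1G the value rested on replicate 1 alone. Hoxb1, at the head end, was at 0% in all 7 lines.

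In Hoxa the gene with the highest mean was Hoxa13, a digit and genital tract gene. It was open over 19.0% in 1373M1, 9.25% in 1398M1, 6.52% in 1399M4, 5.30% in 1399P1, 4.30% in 12N1G, 3.16% in N2N1G and 2.56% in 1398P2. The libraries of a line differed widely, with 0 and 518 bp in 12N1G and 639 and 0 bp in 1399P1. Hoxa9, a blood progenitor gene linked to leukemia, was open to a similar extent in all lines, 4.12 to 6.62%. Its open region, chr6:52221378-52222073, had a peak in 13 of 14 libraries and lay away from its start. Hoxa2 and Hoxa7 were at 0% in all lines. Hoxa3, Hoxa4, Hoxa6, Hoxa10 and Hoxa11 ranged between 0 and 8.79%.

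Hoxc was little open in all lines. Hoxc5 had the highest mean of the cluster, at 12.1% in 1398P2, 6.86% in 1399M4, 5.79% in 1399P1, 4.13% in 1373M1, 1.93% in N2N1G, 1.51% in 12N1G and 0% in 1398M1. The 12.1% rested on 1 library, with 1503 bp in replicate 1 of 1398P2 and 295 bp in replicate 2. Hoxc12 was at 0% in every line. The highest line was at 1.41% for Hoxc4, 1.39% for Hoxc8, 4.02% for Hoxc9, 4.66% for Hoxc10, 5.11% for Hoxc11 and 5.46% for Hoxc13. Hoxc6 was at 0% in both lymph node lines and at 1.97 to 4.14% in the 5 others.

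The number of members with an open start differed little between the genotypes. A peak within 1 kb of the start was found for 3 members in replicate 2 of 1398P2 and for 11 to 18 of the 38 in the other libraries. The mean was 13.5 ± 1.32 (SD, n = 3 lines) in RPR2 and 13.4 ± 2.02 (n = 4) in Nfibf/f, and the two-sided exact permutation test gave p = 1. The start of 11 members, among them Hoxa2, Hoxb1, Hoxc12 and Hoxd4, had no peak in any library. The start of Hoxb5 had one in all 10 libraries from outside the lymph node and in 0 of 4 from it. Hoxd3 and Hoxd10 had one in 4 of 4 lymph node libraries and in 1 and 2 of the others.

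By paralog class, the lymph node lines lay below the others for central genes and above them for posterior genes. These means mix clusters that went opposite ways. Central genes (groups 4 to 8) had a mean open share of 1.96% in each lymph node line and 4.88 to 7.88% in the others. Anterior genes (groups 1 to 3) had 3.55 and 4.31% against 2.92 to 5.46%, and posterior genes (groups 9 to 13) 4.47 and 5.13% against 2.86 to 3.64%. Central Hoxb genes were at 1.35% in each lymph node line against 9.70 to 16.5%. Central Hoxd genes were at 8.54 and 8.46% against 1.90 to 5.11%, and central Hoxa and Hoxc genes overlapped. Posterior Hoxd genes were higher in the lymph node lines (10.3 and 11.3% against 2.14 to 3.50%), while those of Hoxa and Hoxb were lower. Over the 7 lines, anterior minus central was -0.946 points, anterior minus posterior 0.471 and central minus posterior 1.42. None passed an exact sign-flip permutation test, with p of 0.25, 0.328 and 0.234 and an adjusted p of 0.328 for each. Of the 6 pairs of clusters, Hoxb minus Hoxc was largest, 3.57 points (exact sign-flip p = 0.0469, adjusted 0.156), and no pair passed after adjustment.

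The open length of each gene was then compared by limma over all 16067 genes with a mean of at least 300 bp, on log2(open length + 200 bp), a scale that understates changes of nearly closed genes. Only 21 of the 38 members entered the test. A member that is open in 1 group alone enters only through that group, so the number called among the 21 is no measure of how the members behave. In the comparison of RPR2 with Nfibf/f, 0 of the 21 passed an adjusted p of 0.05, while 224 of 16067 genes, or 1.39%, did, with 0.373% higher and 1.02% lower in RPR2. The lowest adjusted p among members was 0.0738 for Hoxd3, 1.70 ± 0.368 (SE) higher in RPR2, followed by 0.0941 for Hoxd8, 0.894 ± 0.223 higher. The median log2 difference was 0.056 for the 21 members and -0.015 for all genes. Without replicate 1 of 1398P2 no gene at all was called.

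**Figure D4:**
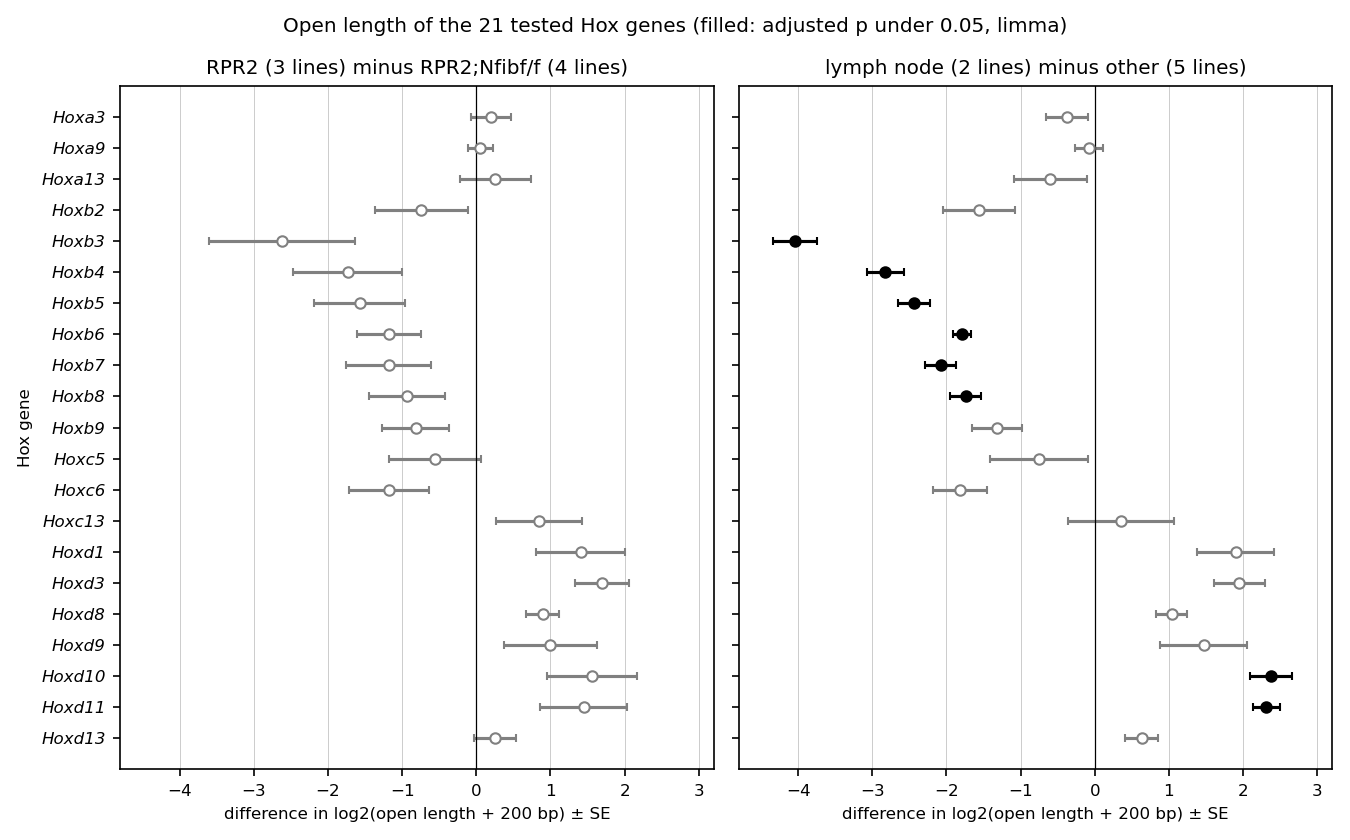
Difference in log2(open length + 200 bp) with its standard error from limma for the 21 tested Hox genes, by genotype on the left and by lymph node against other lines on the right. Filled points have an adjusted p under 0.05. The left panel has none, and the right panel has 6 in Hoxb below 0 and 2 in Hoxd above 0.

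Between the lymph node lines and the others, limma called 75 of 16067 genes, or 0.467%, and 8 of the 21 tested members were among them. The 2 higher ones were Hoxd11, by 2.32 ± 0.184 (SE, adjusted p = 0.00751), and Hoxd10, by 2.38 ± 0.284 (adjusted p = 0.0257). Higher genes made up 0.199% of all tested and lower genes 0.268%. The 6 lower ones were Hoxb3 at -4.04 ± 0.291, Hoxb4 at -2.83 ± 0.251, Hoxb5 at -2.44 ± 0.22, Hoxb7 at -2.08 ± 0.207, Hoxb6 at -1.79 ± 0.123 and Hoxb8 at -1.74 ± 0.21, with adjusted p from 0.00495 to 0.0257. Hoxd3 (1.95 ± 0.341, adjusted p = 0.0647), Hoxd8 (1.04 ± 0.209, adjusted p = 0.0826) and Hoxc6 (-1.81 ± 0.362, adjusted p = 0.0826) missed the threshold. This comparison shares all its lines with that by genotype and was chosen after the values were seen.

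Several of these calls passed the threshold or missed it depending on single libraries, while the differences stayed of similar size. With each library left out in turn, the difference ran from 2.25 to 2.69 for Hoxd10, 2.19 to 2.58 for Hoxd11, -4.62 to -3.73 for Hoxb3, -2.97 to -2.31 for Hoxb4, -2.5 to -2.4 for Hoxb5, -2.52 to -1.8 for Hoxb7 and -2.39 to -1.39 for Hoxb8. Without replicate 1 of 1398P2, 5 genes were called in all and Hoxb6 alone among members. The limma adjusted p was then 0.101 for Hoxb3, 0.208 for Hoxd10, 0.166 for Hoxd11, 0.34 for Hoxb8, 0.528 for Hoxb4, 0.0553 for Hoxb5 and 0.211 for Hoxb7. Hoxd10 also lost it without replicate 2 of 1398M1 (0.0574), replicate 1 or 2 of 1399M4 (0.0553 and 0.0503) or replicate 2 of 1399P1 (0.0796), Hoxd11 without replicate 1 of 1373M1 (0.0511) or of 1399M4 (0.0527), and Hoxb8 without replicate 1 of 12N1G (0.0781). With the 2 lymph node lines averaged into 1, Hoxb3 was the single gene called (adjusted p = 0.0135). With the Nfibf/f lines that share a number averaged into 1, limma called 14 genes, among them Hoxd11, Hoxb4 and Hoxb6, and the adjusted p of the other 5 members was 0.0513 to 0.074. The directions held throughout. Within the Nfibf/f genotype, lung tumor against liver metastasis, limma called 0 genes, or 0%, with 1188 at an unadjusted p under 0.05, and 0 of 21 members.

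The chromatin beside the clusters followed the same sides. In the 500 kb beyond the Hoxd1 end of Hoxd, 19 of 36 regions were open in 12N1G and 23 in N2N1G, against 2 to 10 in the other lines. In the 500 kb beyond the Hoxb1 end of Hoxb, where Skap1 lies, 10 and 9 of 64 were open in the lymph node lines and 21 to 40 in the others. On the opposite side of each cluster the counts overlapped, with 7 and 7 of 22 against 2 to 9 at Hoxd and 16 and 14 of 56 against 7 to 23 at Hoxb. The counts thus stood apart on 1 side of each cluster, and whether those regions form 1 open domain with the cluster was not tested.

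The local background around summits, relative to the floor of the library, moved with these results. Within Hoxd the 4 lymph node libraries had 4.14 to 9.74 times the floor and 9 of the 10 other libraries 1 to 1.42 times. The remaining one, replicate 2 of 1398P2, had no summit there and so no value. Within Hoxb the lymph node libraries had 1.04 to 1.16 times and the others 2.89 to 13.4 times. Such a background is taken from reads around the summit and includes those of neighbouring peaks. In the 500 kb on both sides it was 2.34 to 4.50 against 1 to 1.95 times for Hoxd, and 2.46 to 4.39 against 2.13 to 3.35 times for Hoxb. Its part in the peak counts was not tested.

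Few of the genes that act with or on the Hox clusters were called. Of the genes adjacent to the clusters, 6 were tested, and Skap1, a T cell adaptor gene beside Hoxb1, was lower in the lymph node lines (-2.24 ± 0.148, limma adjusted p = 0.00495). It was open over 0.60 and 0.62% of its window there and over 2.78 to 3.80% in the other lines. Mtx2, on the Hoxd1 side of Hoxd, was at 1.46 and 1.60% against 1.05 to 1.55%. The starts of the 12 Polycomb genes carried a peak in all 14 libraries, and 0 of the 12 were called in any comparison. Rnf2, a ubiquitin ligase of Polycomb repressive complexes, had a difference of 0.108 ± 0.087 by genotype (limma adjusted p = 0.557).

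Of the 7 Trithorax genes 0 were called, and all 7 had a negative difference by genotype, with a median of -0.218, against -0.015 for all genes. Their lowest p-values were those of Men1 (-0.234 ± 0.087, limma adjusted p = 0.202) and Kmt2a (-0.345 ± 0.157, adjusted p = 0.286). Among 9 Hox cofactors of the Pbx, Meis and Pknox families 0 were called, with Pbx2 at -0.531 ± 0.154 (limma adjusted p = 0.126) and Pknox2 at 0.538 ± 0.189 (adjusted p = 0.182). Of the Cdx and Evx genes, homeobox genes that act upstream of Hox or sit at the cluster end, 2 of 5 were tested and 0 called, with Cdx2 at -0.626 ± 0.193 (limma adjusted p = 0.142) and Evx2 at 0.537 ± 0.507 (adjusted p = 0.624).

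Of 11 tested retinoic acid genes 1 was called. Rarg, a retinoic acid receptor, was lower in RPR2 (-1.20 ± 0.154, limma adjusted p = 0.0294), at 3.55 to 5.26% against 8.42 to 12.1% of its window. It lies on chromosome 15 away from Hoxc. Among 12 genes of the Irx and Dlx homeobox clusters 0 were called, with Dlx4 (-0.994 ± 0.306, limma adjusted p = 0.141) and Irx2 (-0.265 ± 0.095, adjusted p = 0.189) lowest in p. Among the cell type markers Cdh5, an endothelial cadherin, was the 1 gene called, higher in RPR2 (2.08 ± 0.21, limma adjusted p = 0.0159), at 2.69 to 2.82% of its window against 0.20 to 0.71%. The starts of 4 to 6 of the 8 fibroblast and endothelial markers carried a peak in the lymph node libraries and of 2 to 4 in the others, with Col3a1 and Pecam1 at 0 of 14 libraries. The part of such cells in the Hox results was not tested.

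The Hox clusters also hold microRNA genes, which repress Hox and other transcripts through their seed, bases 2 to 8. The 5 with a hairpin entry fall into 2 seed groups, and the mature forms of their 5p arms are shown, with the seed in capitals, from RefSeq. Mir196a-1 and Mir196a-2 give the same mature form.
mmu-miR-10a-5p: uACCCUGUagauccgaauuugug
mmu-miR-10b-5p: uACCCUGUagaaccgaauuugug
mmu-miR-196a-5p: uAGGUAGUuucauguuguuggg
mmu-miR-196b-5p: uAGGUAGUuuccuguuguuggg
Those of miR-10 share the seed ACCCUGU and those of miR-196 the seed AGGUAGU. Mir10a lies in Hoxb upstream of Hoxb4, and a peak came within 1 kb of its hairpin in 7 libraries, none from the lymph node. The hairpin of Mir10b, near Hoxd4, was under a peak in 1 library, replicate 2 of 1399P1. Despite the open Hoxd cluster, no lymph node library had a peak within 1 kb of it. Mir196b, in Hoxa, was under a peak in replicate 1 of 1398P2, and Mir196a-1 and Mir196a-2 had none within 1 kb in any library.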

How the data were processed

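Each library came as its own narrowPeak list of peaks. MACS2, SAMtools, Picard, Bowtie2 and cutadapt 2.10, and the builds GRCm38 and mm10, are named per the submitters' processing notes. The sources used here give neither the settings nor whether reads were shifted to the cut site. The authors deposited for each peak a fold enrichment, a ratio to the local background of its library, and for its summit the -log10 q-value and -log10 p-value, the lowest -log10 q being 1.3. The score the authors deposited was not used. These values are on a scale of their own in each list and were used only to filter or rank peaks and to solve for depth. Fold and p together fix the pileup and background of a summit under a Poisson model, and 100% of 1192565 pileups came out whole within 0.02. Summits whose first solution was not whole were matched to the closest whole pileup. That share is thus partly set by the method and is no independent check of the model.

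Gene spans were those of RefSeq on GRCm38.p6, although the names of 10 of the 14 lists carry the human build GRCh38. No list held a chromosome 20, 21 or 22, and the starts of all 12 Polycomb genes listed there carried a peak in every library. For 22 members the start came from the RefSeq promoter table, and for the other 16 either end of the gene was taken. Open length was the number of bases under a peak in a gene plus 2 kb, scaled to the same total over all genes in each line. It was tested by limma 3.58.1 in R 4.3.3 with Benjamini-Hochberg adjustment at 0.05. On data simulated for the comparison of genotypes, with 16029 genes run, limma called 53% of genes changed 2-fold, 100% of those changed 4-fold and 9 of 15829 unchanged genes. For the lymph node comparison, with 16019 genes run, these were 38%, 100% and 6 of 15819. For lung tumor against liver metastasis lines, with 16031 genes run, they were 17%, 100% and 8 of 15831. These shares need not hold for genes whose spread between lines is wider than in the simulated data. Hoxb3, at -2.62 ± 0.987 (SE) by genotype, was not called (limma adjusted p = 0.207). A gene not called is thus not shown to differ by less than 4-fold. Single values were compared with exact permutation tests in Python 3.11.15.

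Members, gene lists and tests were chosen with earlier results of these data known. Values were given in full for the members with the highest and lowest mean open share of each cluster, the 3 lowest p by genotype in each direction and the 3 widest ranges, and further members were chosen after their values were seen. Of other lists, genes past the threshold or the 2 with the lowest p by genotype were named, except 1 that is not reported here. The alternatives were stricter peaks (-log10 q of at least 5), 33558 peaks per library, bases open in both libraries, scaling, other windows and pseudocounts, no filter, a replicate block, lymph node lines as 1, lines of 1 number as 1 and leaving out each library.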

Additional observations from a re-analysis of the deposited data

Results flagged for a closer look

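The 4 Nfibf/f lines were screened for a single line far from the other 3, in 43 sets of 4 values: the 4 clusters, the number of open starts and the 38 members. Of these, 7 sets were marked, each a single member. Chance would mark about 1 in 20 such groups of values with a normal spread, but in 6 of the 7 sets 3 lines were at 0%, so that any value above 0 in the fourth is marked and that rate does not apply.

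Hoxd4 was at 1.51% in 1399P1 and at 0% in the other 6 lines. The value rested on replicate 2 of 1399P1, with 3.01%, and the peak, chr2:74725998-74726334, covered the hairpin of Mir10b. Hoxa5 was at 2.0% and its neighbour Hoxa6 at 1.75% in 1398P2, both from replicate 1 alone, and both genes were more open in the RPR2 line 1373M1, at 10.1 and 8.79%. Hoxc4 was at 1.41% in 1399M4, with a peak in both libraries (1.72 and 1.11%), and at 0.97% in N2N1G. Hoxc8 was at 1.39% in 1399M4, from replicate 1 alone, and at 0% in the other 6 lines. Hoxc11 was at 4.09% in 1398M1, from replicate 2 alone, and at 5.11% in N2N1G, where both libraries had a peak. Hoxd12 was marked in the other direction, at 0% in 1399P1 and 2.09 to 2.14% in the other 3 Nfibf/f lines.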

How the results depend on the processing

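The lower open share of Hoxb and the higher one of Hoxd in the lymph node lines kept their direction under the 6 other settings and without each library, with ranges of -5.8 to -3.29 and 5.33 to 7.31 points over settings. By genotype, the difference of Hoxd stayed between 3.65 and 5.00 points and that of Hoxb between -3.84 and -2.25, and no setting brought an adjusted p under 0.05. Small differences changed sign. By genotype, Hoxa came to -0.085 and Hoxc to 0.057 points with a -log10 q of at least 5, and Hoxa to -0.12 with an equal number of peaks. Between lung tumor and liver metastasis lines, Hoxc came to 0.242 and Hoxd to -0.364 with the stricter q, and Hoxd to -0.577 with bases open in both libraries and -0.118 when scaled by the total open length. The difference in open starts was 0 with equal peaks and -0.125 with starts set by the strand of the cluster. Without the lymph node lines Hoxa minus Hoxd was 0.068 points, anterior minus central genes came to 0.074 with gene bodies alone, and anterior minus posterior genes to 0.808 with bases open in both libraries, which passed (exact sign-flip permutation, adjusted p = 0.0469). The cause of these changes was not tested.

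Leaving out each library in turn moved the difference by genotype from -0.236 to 0.597 points for Hoxa, -0.819 to 0.165 for Hoxc and -1.75 to 2.0 for the number of open starts. Between lung tumor and liver metastasis lines the ranges were -1.02 to 0.648 for Hoxa, -2.36 to 2.09 for Hoxb, -1.15 to 0.816 for Hoxc and -0.736 to 1.15 for Hoxd. The limma difference of Hoxa13 by genotype ran from -0.153 to 0.575. Hox regions closed in the lymph node lines alone numbered 4 to 7 without each library and 1 with equal peaks.

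Counts of genes called by limma also moved, and the cause was not tested. By genotype they were 132 with a pseudocount of 50 bp, 360 with windows of 10 kb, 1 for the number of merged regions, 6 with the lymph node lines as 1, 0 with lines of 1 number averaged (3158 at an unadjusted p under 0.05) and 0 to 278 without each library. Between lung tumor and liver metastasis lines they were 6 with windows of 10 kb, 3 with the stricter q, 3 with equal peaks and 0 to 4 without each library. Between lymph node and other lines they were 131 with a pseudocount of 1000 bp, 218 without a filter, 25 for merged regions, 42 without scaling, 125 with the stricter q, 210 with equal peaks, 1 with the lymph node lines as 1, 14 with lines of 1 number averaged and 5 to 125 without each library. Replicate numbers did not pair the libraries, since only 4 of 21 pairs of lines had same-numbered libraries that deviated together with a correlation over 0.1 (range -0.15 to 0.28). With a replicate block the counts were 886 by genotype, 33 by tissue and 379 for the lymph node lines, and Hoxd3 passed by genotype (limma adjusted p = 0.0191). Such a block can be fitted only to single libraries, so these counts and this p do not rest on the means of the lines. A missing peak means none at the depth of that library, which was lowest in replicate 2 of 1398P2.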
